A study of Mus musculus with 6 samples.

Results

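The Slco genes encode the organic anion transporting polypeptides, membrane carriers for bile acids, steroid and thyroid hormone conjugates, prostaglandins and many drugs. Of 15 Slco genes in the count table, 8 were chosen by name out of 24421 genes in all, namely Slco1a1, Slco1a4, Slco1a6, Slco2a1, Slco2b1, Slco3a1, Slco4a1 and Slco4c1. The family was chosen because Slco4a1 was higher in I-PpoI kidney cortex, so its values in that comparison are a description. Counts of calls below include it, and nothing is supported with them. All 8 passed the filter on low counts. The 7 remaining Slco genes did not, and they are described by their counts.

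Kidney cortex RNA was sequenced from 2 groups, mice with I-PpoI expressed in the proximal tubule (titled PT-I_Ppo-1, here I-PpoI, 3 libraries) and mice titled Wild-Type (3 libraries). I-PpoI is a homing endonuclease that makes DNA double-strand breaks at its recognition sites. The promoter that drives it, any inducing agent, and the strain, age and sex of the mice are not given in the sources used here. Whether each library is a different mouse is not stated in the labels. The p-values therefore reflect only how much these libraries vary, which may be technical.

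In a nephron, organic anions are taken up from blood across the basolateral membrane of the proximal tubule and leave through efflux pumps of the brush border, while several Slco carriers sit in the brush border itself and can take filtered anions back. Slco1a1 and Slco1a6 are known as carriers of the mouse proximal tubule, and Slco1a1 is known for a higher level in male than in female kidney under the control of androgen. Slco2a1 is the prostaglandin transporter, and Slco4a1 and Slco4c1 are known to carry thyroid hormones.

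Library totals ran from 13582540 to 20861021 counted read pairs. The library names have 2 forms, which differ in a hyphen before the last number. I-PpoI replicate 3 and wild type replicates 2 and 3 have the hyphen, and the other libraries lack it. These forms lay apart on the leading principal component, which held 43.1% of the variance. No label names the form as a batch. Values within each form are given beside the pooled ones. The proximal tubule markers Lrp2, Cubn and Slc34a1 were detected in every library, and the 14 convoluted segment markers summed to 23331 to 32087 CPM (read pair counts scaled to 1e6 of the adjusted library total). The Y-linked gene Ddx3y was at 17.4 CPM or more in each, and Xist was at 51 counts or fewer. Xist was highest in I-PpoI replicate 1, at 2.7 CPM, and at 0.3 CPM or less in every other library.

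Promoter sequences are shown for Slco4a1, the gene the family was chosen for, and for the 3 Slco1a genes, neighbours on chromosome 6 whose log2 CPM correlated at 0.89 to 0.95 over the 6 libraries, a description only, since these libraries share the 2 name forms. Each is the 250 bases before a RefSeq transcription start (GRCm38.p6, which is mm10), read 5' to 3' on the strand of the gene, and RefSeq promoters matched 7 of the 8 genes. Capitals mark matches, on either strand, to 6 short motifs, which are the TATA box TATAAA, the CCAAT box CCAAT, the GC box GGGCGG, the core of the xenobiotic response element GCGTG, the half-site of androgen and glucocorticoid receptors TGTTCT and the HNF1 half-site GTTAAT. No capital stretches of different motifs overlapped in these windows.
Slco4a1, upstream start, chr2:180455995-180456244, plus strand: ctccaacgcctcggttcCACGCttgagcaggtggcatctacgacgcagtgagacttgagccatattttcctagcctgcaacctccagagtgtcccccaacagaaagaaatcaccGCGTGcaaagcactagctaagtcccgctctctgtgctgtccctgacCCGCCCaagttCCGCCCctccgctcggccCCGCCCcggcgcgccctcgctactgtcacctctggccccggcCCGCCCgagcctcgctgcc
Slco4a1, start used in the count table, chr2:180460728-180460977, plus strand: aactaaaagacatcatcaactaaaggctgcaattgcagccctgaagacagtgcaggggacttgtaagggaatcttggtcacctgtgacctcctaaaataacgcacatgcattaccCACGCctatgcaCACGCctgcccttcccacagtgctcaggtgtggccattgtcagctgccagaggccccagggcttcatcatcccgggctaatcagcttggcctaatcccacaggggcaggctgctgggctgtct
Slco1a1, start used in the count table, chr6:141946963-141947212, minus strand: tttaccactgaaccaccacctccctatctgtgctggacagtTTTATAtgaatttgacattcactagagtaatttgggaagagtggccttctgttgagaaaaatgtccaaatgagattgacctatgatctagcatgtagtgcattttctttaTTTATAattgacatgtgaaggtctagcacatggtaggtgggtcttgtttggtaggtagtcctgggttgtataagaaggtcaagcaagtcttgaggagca
Slco1a4, RefSeq start, chr6:141856221-141856470, minus strand: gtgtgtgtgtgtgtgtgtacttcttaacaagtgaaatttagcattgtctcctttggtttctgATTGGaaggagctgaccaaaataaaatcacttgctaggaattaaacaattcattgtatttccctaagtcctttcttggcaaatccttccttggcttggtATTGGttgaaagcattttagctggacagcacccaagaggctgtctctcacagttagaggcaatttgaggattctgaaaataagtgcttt
Slco1a6, start used in the count table, chr6:142186150-142186399, minus strand: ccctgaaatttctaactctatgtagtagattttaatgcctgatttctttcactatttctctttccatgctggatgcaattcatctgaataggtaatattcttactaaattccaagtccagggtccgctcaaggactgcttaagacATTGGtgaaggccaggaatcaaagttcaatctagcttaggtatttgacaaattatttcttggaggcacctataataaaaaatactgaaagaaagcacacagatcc

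The upstream Slco4a1 start had 64.8% GC, 21 CpG dinucleotides and 4 GC boxes. The start 3' of it, where the count table begins the gene, had 54.8% GC, 4 CpG and no GC box. Each held 2 copies of the xenobiotic response core. The 3 Slco1a promoters had 36.4% to 40.4% GC and 1 CpG at most. Of 32851 promoters of the same length, 12.5% had less GC than Slco1a1, 10.3% less than Slco1a4 and 6.24% less than Slco1a6. Slco1a1 had 2 TATA box matches, Slco1a4 had 2 CCAAT matches and Slco1a6 had 1 CCAAT match. None of the 5 windows held the receptor half-site or the HNF1 half-site. The 32851 promoters searched leave out 1 chromosome. Among them the shares with a match were 12.4% for the TATA box, 33.8% for the CCAAT box, 32.7% for the GC box, 28.2% for the xenobiotic core, 16.1% for the receptor half-site and 6.43% for the HNF1 half-site.

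Slco4a1 (chromosome 2, 180460978 to 180474853, mm10, plus strand) encodes a broadly expressed carrier of thyroid hormone and prostaglandins. It was at 21.6, 19.4 and 16.9 CPM in I-PpoI replicates 1, 2 and 3, and at 9.20, 9.54 and 7.17 CPM in wild type replicates 1, 2 and 3. Every I-PpoI library lay above every wild type library. The means were 19.3 ± 2.33 against 8.64 ± 1.28 CPM (SD, n = 3 each), a 2.25-fold difference and a log2 fold change of 1.17 ± 0.15 (SE). The difference of mean log2 CPM was 1.14 within libraries whose names lack a hyphen (2 of I-PpoI, 1 of wild type) and 1.02 with a hyphen (1 of I-PpoI, 2 of wild type). Its exons share no bases with another gene of the table. None of 3131 windows of 100 bases in its transcripts occurred unchanged in another gene's protein-coding transcript (an older GENCODE set). Noncoding transcripts were not searched.

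Of the 8 genes, 1 was higher and 0 were lower at an adjusted p under 0.05 (quasi-likelihood test of edgeR, Benjamini-Hochberg over all genes, here and below). The 1 was Slco4a1. Over all 13977 genes tested, 0.136% were called, all of them higher, and nothing is read from the count for the family because Slco4a1 chose it. At an unadjusted p under 0.05, 1 gene of the family was higher and 2 were lower, where 12% of all genes passed. The groups did not overlap for 2 of the 8, with Slco4a1 higher (9.23% of all genes) and Slco1a6 lower (7.74% of all genes), or 17% of all genes in either direction. DESeq2 called 1 of the 8 higher and 0 lower, where it called 1.53% of 12256 genes. When the name form entered the edgeR model, it also called 1 higher and 0 lower, where 0.351% of all genes were higher and 0.107% lower, 0.458% together.

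**Figure D1:**
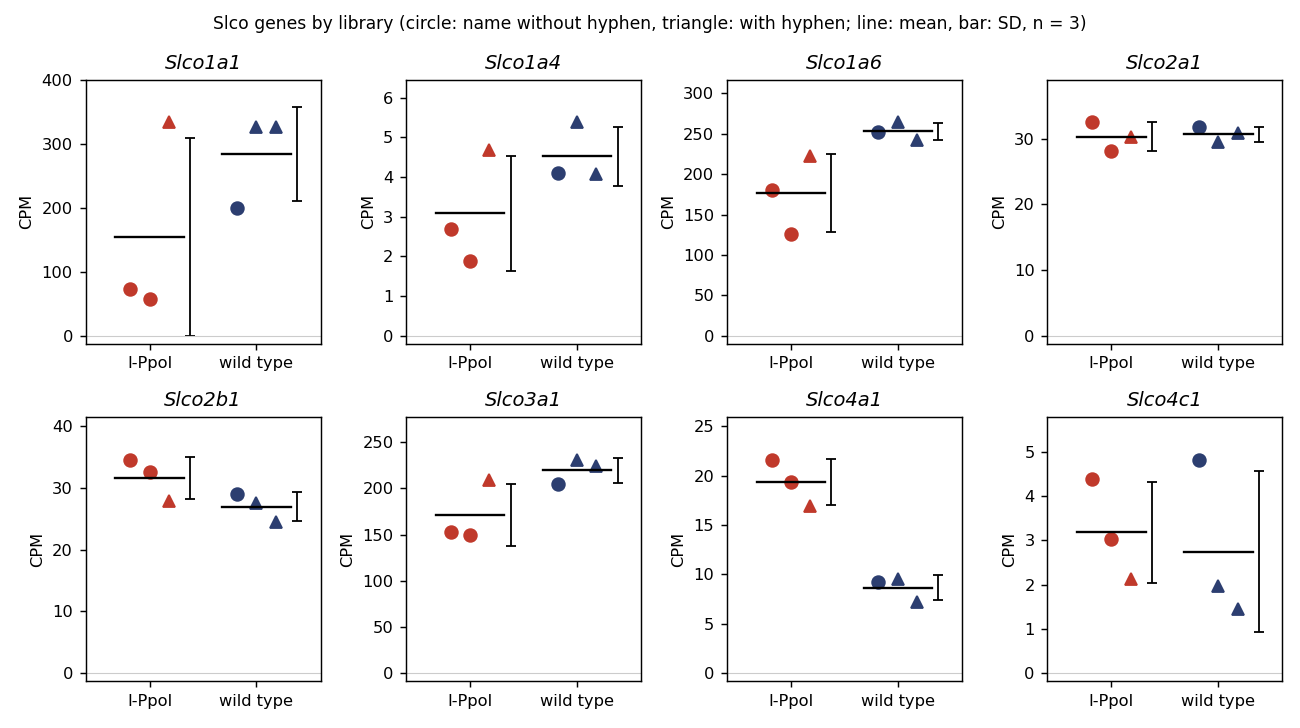
Levels of the 8 Slco genes in CPM (vertical axes from 0) in the 3 I-PpoI libraries (red) and the 3 wild type libraries (blue), with circles for library names without a hyphen and triangles for names with one, group means as lines and SD as bars. Slco4a1 lies between 16.9 and 21.6 CPM in I-PpoI and at 9.54 CPM or less in wild type, while I-PpoI replicate 3 lies with the wild type libraries for Slco1a1.

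Summed markers of the thick ascending limb, principal cells and thin limbs were higher in the same libraries as Slco4a1. So were those of intercalated cells (539 to 599 against 460 to 516 CPM) and endothelium (796 to 837 against 662 to 738 CPM). Those of the distal convoluted tubule (1548 to 1847 against 1731 to 2114 CPM, 6 of 7 below 0) were not. The sum of the 10 thick ascending limb markers ran from 7857 to 8170 CPM in I-PpoI, and from 5563 to 6327 CPM in wild type. All 10 had fold changes above 0, 2 of them passed (Ptger3 and Tmem207, 4 in the fit that includes the form of library names), and none was at 0. Over all genes tested, 0.136% passed as higher, and 0.351% did in the fit with the form. The 9 principal cell markers summed to 929 to 1053 against 675 to 712 CPM, with 9 of 9 above 0 and Avpr2, the vasopressin receptor, passing. The 9 markers of thin limbs and deep medulla summed to 385 to 438 against 204 to 278 CPM, 5 of 6 tested were above 0, 1 passed (3 in the fit with the form), and Akr1b3 was at 0 in every library. Whether reads of Akr1b3 were lost in counting was not checked, so this value does not show that the gene was silent. The part of the marked cell types in the Slco4a1 difference was not tested. In bulk tissue, a larger share of a cell type and more RNA per cell of that type cannot be told apart.

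Slco1a1, Slco1a4 and Slco1a6 lie in 1 cluster on chromosome 6 (141805440 to 142186149, mm10, all on the minus strand) and encode close relatives. Mean levels of all 3 were lower in I-PpoI, and none passed the test. In each case I-PpoI replicates 1 and 2 were the lowest of the 6 libraries and I-PpoI replicate 3 was nearer to wild type. Of the 100-base windows in their transcripts, 0.814% (Slco1a1), 1.07% (Slco1a4) and 1.82% (Slco1a6) also occurred in a protein-coding transcript of another gene, in Slco1a5, Gm6614 or each other. The counting set no option for reads with several positions.

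Slco1a1 (chromosome 6, 141907281 to 141946962), an uptake carrier for steroid sulfates and bile acids, was at 72.7, 57.5 and 334 CPM in I-PpoI replicates 1, 2 and 3 and at 199.6, 327.1 and 327.0 CPM in wild type replicates 1, 2 and 3. I-PpoI replicate 3 was the highest of all 6 libraries, so the groups overlapped. The means were 155 ± 156 against 285 ± 73.6 CPM, a log2 fold change of -0.88 ± 0.59 (95% interval -2.22 to 0.46, edgeR adjusted p = 0.557). Its spread within groups, an SD of 1.02 on the log2 scale, exceeded that of 99.5% of tested genes. Without I-PpoI replicate 3 the log2 fold change was -2.12 ± 0.23 (edgeR adjusted p = 0.00738), in a fit that called 625 genes in all, against 19 with all libraries. It was -0.54 without I-PpoI replicate 1 (edgeR adjusted p = 0.852) and -0.49 without I-PpoI replicate 2 (edgeR adjusted p = 0.901). On the log2 scale the difference was -1.62 in libraries lacking the hyphen and 0.03 in those carrying it. Without I-PpoI replicate 3 all I-PpoI libraries lack the hyphen, while wild type replicates 2 and 3 carry it. That fit therefore partly mixes group with name form, here and for the genes below. With the name form in the edgeR model, the group log2 fold change of Slco1a1 was -0.78 ± 0.28 (edgeR adjusted p = 0.302). The value for names without a hyphen relative to those with one was -1.52.

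Slco1a6 (chromosome 6, 142085768 to 142186149), a kidney-enriched relative, was at 180, 126 and 222 CPM in the I-PpoI libraries and at 252, 264 and 243 CPM in the wild type libraries. Every I-PpoI library lay below every wild type library. The means were 176 ± 48.0 against 253 ± 10.7 CPM, and the log2 fold change of -0.52 ± 0.18 did not pass (95% interval -0.92 to -0.12, edgeR adjusted p = 0.330). It was -0.72 ± 0.14 without I-PpoI replicate 3 (edgeR adjusted p = 0.0370) and -0.33 without I-PpoI replicate 2 (edgeR adjusted p = 0.652). The difference was -0.74 in libraries lacking the hyphen and -0.19 in those carrying it. With the name form in the edgeR model, the group log2 fold change was -0.45 ± 0.15 (edgeR adjusted p = 0.260).

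Slco1a4 (chromosome 6, 141805440 to 141856171), best known as a carrier of liver and the blood-brain barrier, was low, with 34 to 85 counts per library. It was at 2.70, 1.88 and 4.68 CPM in I-PpoI and at 4.09, 5.38 and 4.08 CPM in wild type. The I-PpoI replicate 3 value lay inside the wild type range, so the groups overlapped. Its log2 fold change was -0.56 ± 0.31 (95% interval -1.27 to 0.15, edgeR adjusted p = 0.485), with -0.83 and -0.0028 within the name forms. It was -0.30 without I-PpoI replicate 2 (edgeR adjusted p = 0.886) and -0.96 without I-PpoI replicate 3 (edgeR adjusted p = 0.0680).

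**Figure D2:**
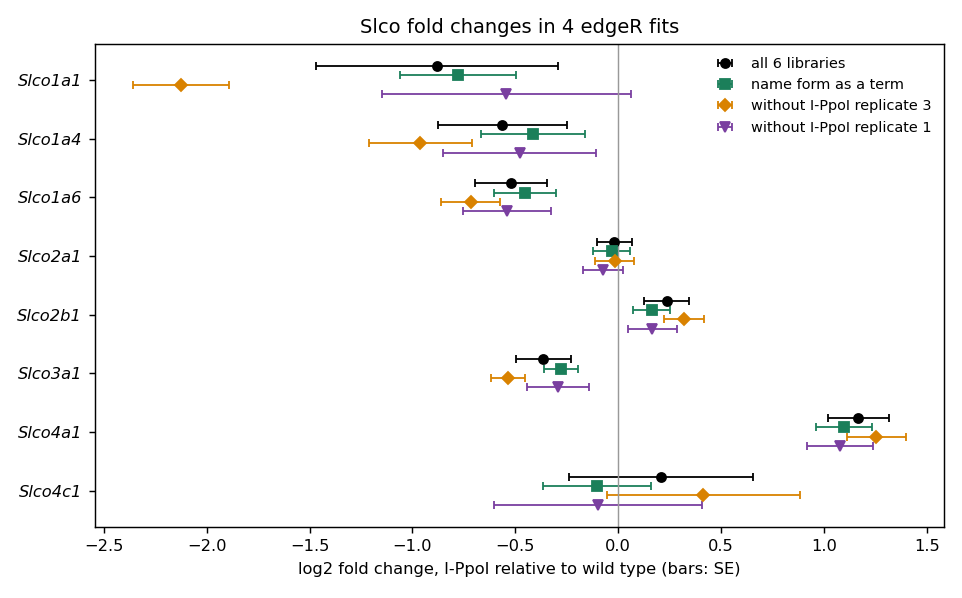
Log2 fold change of I-PpoI relative to wild type for the 8 Slco genes (horizontal axis, bars are SE) in 4 edgeR fits, with all 6 libraries (black circles), with a term for the form of library names (green squares), without I-PpoI replicate 3 (orange diamonds) and without I-PpoI replicate 1 (purple triangles). Slco1a1 moves from -0.88 to -2.12 without I-PpoI replicate 3, while Slco4a1 stays between 1.08 and 1.25 in these fits.

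Slco3a1 (chromosome 7, 74275418 to 74554780), a carrier of prostaglandins and thyroxine, had a correlation of 0.98 with Slco1a1 over the 6 libraries. Of 10545 genes compared, 829 exceeded 0.9 with Slco1a1, so this value is only descriptive. Slco3a1 was at 153, 149.8 and 209 CPM in I-PpoI and at 205, 231 and 224 CPM in wild type. Only I-PpoI replicate 3 reached the wild type range. The means were 171 ± 33.5 against 220 ± 13.6 CPM, a log2 fold change of -0.36 ± 0.13 (95% interval -0.67 to -0.06, edgeR adjusted p = 0.358). Without I-PpoI replicate 3 it was -0.53 ± 0.08 (edgeR adjusted p = 0.0217). The difference was -0.43 in libraries lacking the hyphen and -0.12 in those carrying it. With the name form in the edgeR model, the group log2 fold change was -0.28 ± 0.08 (edgeR adjusted p = 0.208).

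Markers of the proximal tubule moved in the same direction as these 4 genes. The sum of the 14 convoluted segment markers ran from 23331 to 27846 CPM in I-PpoI and from 27895 to 32087 CPM in wild type, and 14 of 14 had fold changes below 0, of which 0 passed by edgeR and 5 were lower at an unadjusted p under 0.05. Over all 13977 genes tested, 784 were lower at that limit. The 10 straight segment markers summed to 3202 to 4027 against 3832 to 4752 CPM, with 8 of 10 below 0, none at 0 and 0 passing by edgeR (4 lower with unadjusted p below 0.05). In the fit that includes the form of library names 1 of these 10, Atp11a, passed (edgeR adjusted p = 0.0390), where 0.107% of all genes were lower. In both sums I-PpoI replicate 3 was the highest of its group. The sum of the 8 androgen-responsive genes ran from 20528 to 34415 CPM in I-PpoI, and from 29649 to 33723 CPM in wild type, with 6 of 8 below 0. Kap made up most of this sum in every library, so the sum mainly shows that gene. Kap, an abundant androgen-induced kidney protein, was at 22113, 19263 and 32647 CPM in I-PpoI replicates 1, 2 and 3 and at 28060, 31529 and 31532 CPM in wild type. Kap was named after its values were seen. As for Slco1a1, the highest Kap value of the 6 was that of I-PpoI replicate 3. Cyp4a12a and Cyp4a12b of the same list lay above 0, at 271 ± 72.9 against 213 ± 29.4 CPM and 36.7 ± 14.9 against 30.5 ± 12.8 CPM. The lowest Cyp4a12b value of the 6, 19.5 CPM, was that of I-PpoI replicate 3. The part of these markers in the Slco differences was not tested.

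**Figure D3:**
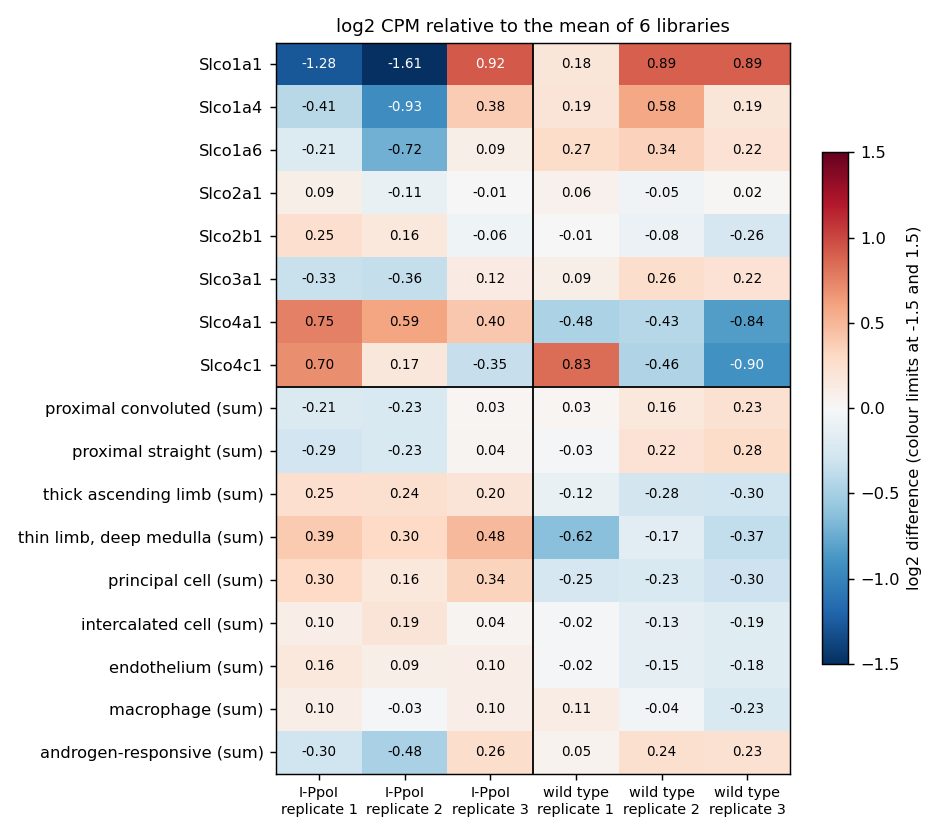
Log2 CPM of each Slco gene, and of the summed markers of 9 lists, in each of 6 libraries (columns) relative to the mean of the 6, with red for higher and blue for lower. Slco4a1 has values of 0.40 to 0.75 in I-PpoI and -0.84 to -0.43 in wild type, and Slco1a1 has -1.28, -1.61 and 0.92 in I-PpoI replicates 1, 2 and 3.

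Slco2a1 (chromosome 9, 103008489 to 103087849), which clears prostaglandins from the extracellular space, was at 32.5, 28.1 and 30.3 CPM in I-PpoI and at 31.7, 29.5 and 30.9 CPM in wild type. The wild type values all lay inside the I-PpoI range. The log2 fold change was -0.018 ± 0.086 (edgeR adjusted p = 0.946), with a 95% interval of -0.22 to 0.18. Its spread within groups was below that of most genes, with 16.9% of tested genes lower still.

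Slco2b1 (chromosome 7, 99657804 to 99711340), a carrier of steroid sulfates, was at 34.6, 32.6 and 27.9 CPM in I-PpoI and at 29.0, 27.5 and 24.4 CPM in wild type. I-PpoI replicate 3 lay inside the wild type range. The means were 31.7 ± 3.40 against 27.0 ± 2.34 CPM, a log2 fold change of 0.24 ± 0.11 (95% interval -0.01 to 0.48, edgeR adjusted p = 0.427), and the differences within the name forms were 0.21 and 0.11.

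Slco4c1 (chromosome 1, 96818784 to 96872171), known as a basolateral carrier of the proximal tubule for digoxin and thyroid hormone, had 26 to 100 counts per library. It was at 4.39, 3.03 and 2.13 CPM in I-PpoI replicates 1, 2 and 3 and at 4.82, 1.97 and 1.44 CPM in wild type replicates 1, 2 and 3. The 3 libraries without a hyphen were the highest and the 3 with one the lowest, across both groups. The log2 fold change between groups was 0.21 ± 0.45 (95% interval -0.81 to 1.23, edgeR adjusted p = 0.871), and the differences within the name forms, -0.39 and 0.31, had opposite signs.

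Compared per exon length in wild type, the order was Slco1a6 at 90.1 ± 3.82 RPKM (CPM per kilobase of exon), Slco1a1 at 71.7 ± 18.6, Slco3a1 at 40.9 ± 2.53, Slco2a1 at 7.61 ± 0.29, Slco2b1 at 5.41 ± 0.47, Slco4a1 at 2.80 ± 0.41, Slco1a4 at 1.18 ± 0.19 and Slco4c1 at 1.15 ± 0.76 RPKM (SD, n = 3). Ranges of neighbours in this order were separate except for Slco1a4 and Slco4c1. In I-PpoI the means were 62.9 ± 17.1, 39.0 ± 39.2 and 31.8 ± 6.23 RPKM for Slco1a6, Slco1a1 and Slco3a1. The Slco1a1 range, 14.5 to 84.2 RPKM, overlapped each of the other 2, which did not overlap each other. Slco4a1, at 6.25 ± 0.75 RPKM, overlapped Slco2b1 at 6.35 ± 0.68 RPKM there. Over all 6 libraries, Slco1a6 lay above 92.0% of tested genes in RPKM, Slco4a1 above 39.5% and Slco1a4 above 15.2%.

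**Figure D4:**
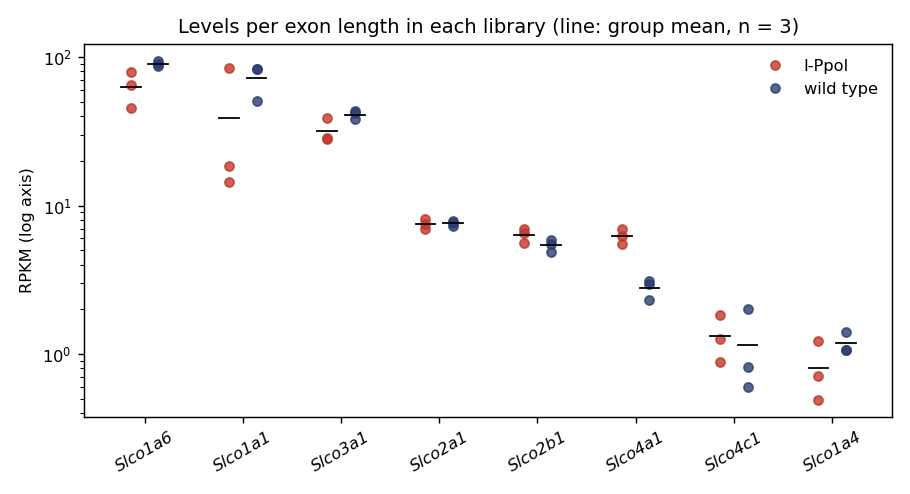
Level of each Slco gene in RPKM (log axis) in the 3 I-PpoI libraries (red) and 3 wild type libraries (blue), with lines at group means and genes ordered by their mean over the 6 libraries. Slco1a6, Slco1a1 and Slco3a1 lie highest, and Slco4c1 and Slco1a4 lie lowest at 2.01 RPKM or less.

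Summed over the 15 genes, the family reached 136, 109 and 223 RPKM in I-PpoI replicates 1, 2 and 3 and 198, 238 and 227 RPKM in wild type replicates 1, 2 and 3. Slco1a1 made up 13.5%, 13.3% and 37.7% of this sum in I-PpoI, and 25.4%, 34.7% and 36.2% in wild type. Slco4a1 made up 5.15%, 5.75% and 2.46% in I-PpoI and 1.02% to 1.50% in wild type. The ratio of Slco1a6 to Slco1a1 was 3.51 and 3.11 in I-PpoI replicates 1 and 2, and 0.94 to 1.78 in the remaining 4 libraries.

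**Figure D5:**
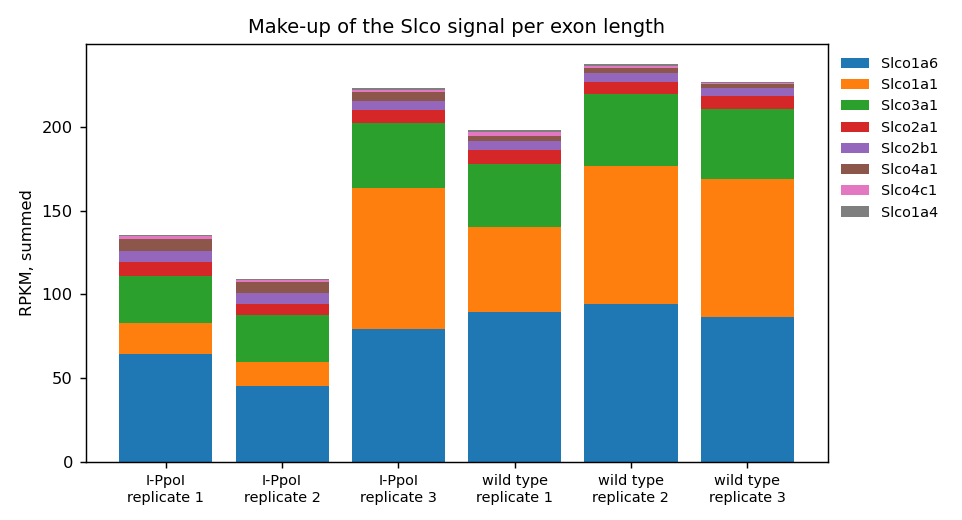
Stacked RPKM of the 8 Slco genes in each of the 6 libraries (vertical axis from 0). I-PpoI replicates 1 and 2 have the lowest sums and the smallest Slco1a1 share, 13.5% and 13.3%, while I-PpoI replicate 3 has a share of 37.7%.

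The 7 Slco genes that did not pass the filter had few counts. Slco6c1 and Slco6d1 had 0 counts in every library, and Slco1a5, Slco5a1 and Slco6b1 had 1 count at most. Slco1c1, a thyroxine carrier of brain endothelium, had 0 to 1 counts in I-PpoI and 2 to 6 in wild type. Slco1b2, the carrier of hepatocytes, had 15 counts in wild type replicate 3 and 1 count at most elsewhere. In that library Alb and Apoa1, hepatocyte genes, had 2210 and 240 counts, while in the other 5 Alb had 217 counts or fewer and Apoa1 35 or fewer. Slco1a1, Slco1a4 and Slco2b1 are also expressed in liver, and without wild type replicate 3 their log2 fold changes were -0.77, -0.63 and 0.17.

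Carriers and enzymes that work beside the Slco family were compared through 7 lists, each described by counts, since no list was tested as a set. Over all genes tested, 7004 had fold changes above 0 and 6973 below 0, with a median log2 fold change of 0.00039, and 19 were higher and 0 lower at the threshold. With unadjusted p below 0.05, the limit used in brackets below, 897 were up and 784 down.

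Among 12 efflux transporters, which pump organic anions and cations out of the cell, 7 were above 0 and 5 below, the median was 0.10 and 0 passed by edgeR (0 up and 1 down by unadjusted p). Abcc6 was at 15.3 ± 1.96 against 18.6 ± 0.12 CPM, Slc47a1, the MATE1 exchanger, at 722 ± 38.9 against 861 ± 118 CPM, and Abcg2, a urate and drug pump, at 575 ± 30.1 against 647 ± 18.3 CPM. Of 14 further carriers of organic anions and bile acids, 3 were above 0 and 11 below, with a median of -0.23 and 0 passing by edgeR (2 up and 3 down by unadjusted p). Slc26a1, a sulfate exchanger, was at 102 ± 24.6 against 152 ± 19.3 CPM, Slc22a6, the basolateral carrier OAT1, at 971 ± 161 against 1383 ± 297 CPM and Slc22a13 at 88.8 ± 10.6 against 74.3 ± 3.53 CPM. I-PpoI replicates 1 and 2 held the lowest 2 of the 6 values for Slc26a1 and Slc22a6, as they did for Slco1a1.

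Prostaglandins are substrates of Slco2a1, Slco3a1 and Slco4a1. Of 14 tested genes of their synthesis, breakdown and receptors, 11 were above 0 and 3 below, the median was 0.19, and 1 passed (3 up and 0 down by unadjusted p). The 1 was Ptger3, an E2 receptor and also a thick ascending limb marker here, at 59.1 ± 2.05 against 30.2 ± 4.0 CPM. Its log2 fold change was 0.97 ± 0.10 with an edgeR adjusted p of 0.0356. Ptger1 was at 35.7 ± 3.25 against 28.6 ± 2.71 CPM and Ptgds, a prostaglandin D synthase, at 11.9 ± 3.90 against 6.0 ± 2.84 CPM. Hpgd, which inactivates prostaglandins after uptake, was at 18.8 ± 3.06 against 16.5 ± 2.10 CPM and was named for that role after its values were seen.

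Of 11 tested genes of thyroid hormone transport, conversion and action, 2 were above 0 and 9 below, with a median of -0.13 and 0 passing by edgeR (0 up and 2 down by unadjusted p). Thrb, a thyroid hormone receptor, was at 22.7 ± 1.27 against 27.0 ± 1.70 CPM, and Slc7a5, an amino acid and thyroid hormone exchanger, was at 4.32 ± 1.07 against 3.06 ± 0.50 CPM. The 15 tested genes of steroid and glucuronide conjugation and release, some of which make Slco substrates, had 4 above and 11 below 0. Their median was -0.17, with 0 passing by edgeR (0 up and 4 down by unadjusted p). Among the sugar-transferring Ugt enzymes of this list, Ugt2b37 was at 95.1 ± 23.2 against 146 ± 36.6 CPM, Ugt3a2 at 1412 ± 208 against 1773 ± 29.7 CPM and Ugt2b5 at 2.92 ± 0.27 against 4.75 ± 1.77 CPM. Relatives within the Ugt2b group may share reads.

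Of 17 tested nuclear receptors and transcription factors known to control drug transporter genes, 5 were above 0 and 12 below, the median was -0.07 and 0 passed by edgeR (0 up and 3 down by unadjusted p). Nr1h4, the bile acid receptor FXR, was at 188 ± 16.3 against 222 ± 8.65 CPM, Hnf4a at 824 ± 85.3 against 979.9 ± 28.9 CPM and Ahr, the xenobiotic receptor, at 4.77 ± 0.18 against 6.08 ± 0.71 CPM. Of the 8 androgen-responsive genes 0 passed by edgeR (0 up and 3 down by unadjusted p), and the median was -0.37. Odc1, the enzyme that starts polyamine synthesis, was at 338 ± 65.1 against 669 ± 217 CPM, Cyp2j13 at 194 ± 46.1 against 314 ± 43.9 CPM and Timd2 at 83.7 ± 19.1 against 113 ± 7.85 CPM. Odc1 (edgeR adjusted p = 0.0390) and Cyp2j13 (edgeR adjusted p = 0.0452) passed as lower in the fit that includes the form of library names. In that fit 0.107% of all genes were lower.

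The genes most like Slco4a1 over the 6 libraries, by Pearson correlation of log2 CPM among 10545 genes, were Csrp1 (0.996), Tmem38a (0.996), Sox18 (0.996), Epcam (0.994) and Cd24a (0.992). With 6 libraries in 2 groups, 277 genes exceeded 0.9, so this order is only descriptive. Epcam, an epithelial adhesion molecule, was at 142, 133 and 123 CPM in I-PpoI and at 85.5, 93.5 and 81.0 CPM in wild type. Sox18, a transcription factor of endothelium, was at 27.6, 26.8 and 23.4 against 17.5, 17.6 and 14.6 CPM. Both shared with Slco4a1 the lowest I-PpoI value in replicate 3 and the lowest wild type value in replicate 3. Their log2 fold changes, 0.61 ± 0.09 for Epcam and 0.65 ± 0.11 for Sox18, were smaller than that of Slco4a1, and neither gene passed. Both were picked by likeness to Slco4a1 in these same libraries, so their group differences are a description and no test is read from them. The 11 endothelial markers summed to 796 to 837 against 662 to 738 CPM, with 11 of 11 above 0, 0 passing by edgeR (1 in the fit with the form of library names) and 4 higher at an unadjusted p under 0.05. In the fit with the form 0.351% of all genes were higher.

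For the remaining genes the 3 most alike were Plxdc2, Serinc1 and Ppp3ca for Slco1a1 (0.9996, 0.998 and 0.996), Mcur1, Eci3 and Fbxo8 for Slco1a6 (0.998, 0.998 and 0.995), Lrrc58, Tmem27 and Ythdf3 for Slco1a4 (0.994, 0.993 and 0.993) and Rbm47, Mlec and Fut9 for Slco3a1 (0.999, 0.997 and 0.997). They were Qsox2, Vta1 and Acyp2 for Slco2a1 (0.985, 0.985 and 0.976), S1pr3, Tmem110 and Vim for Slco2b1 (0.991, 0.990 and 0.987) and Syne1, Rsad2 and Ogg1 for Slco4c1 (0.996, 0.988 and 0.987). A correlation above 0.9 was reached by 829 genes with Slco1a1, by 802 with Slco3a1 and by 25 with Slco2a1, whose level varied least.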

How the data were processed

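RNA-seq of kidney cortex was analysed in 3 I-PpoI and 3 wild type libraries. The authors deposited raw read pair counts per gene, made with featureCounts 1.5.2 over exons of a UCSC mm10 annotation, per the file headers, after mapping with HISAT2, per the labels' protocols. Those protocols name mm9, but 99.3% of 23204 genes matched by symbol overlapped their GRCm38.p6 (mm10) position, so coordinates are mm10. The counting command set no strand option and none for reads with several positions. The authors also deposited rlog log2 values, used for 1 alternative.

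Genes were kept by edgeR's filter (minimum count 10) and scaled by TMM. The test was edgeR 4.0.16 (R 4.3.3), quasi-likelihood, two-sided, with Benjamini-Hochberg adjustment over 13977 genes and a threshold of 0.05. It was tested on simulated data, which held no difference between the name forms, and that outcome is not reported here. CPM and RPKM use TMM-adjusted totals, and log2 CPM a prior count of 2. DESeq2 1.42.0 and limma 3.58.1 served as alternatives, with other scalings, filters, terms and left-out libraries.

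The genes and lists were chosen with earlier results of these data known. The text names all 8 genes, the 3 of each list with the smallest p and any that passed, and the 5 genes most like Slco4a1 or 3 most like each other Slco gene (mean of at least 5 CPM, predicted genes left out). Some genes that this rule names are not reported here. Protein identity between the family's members was not analysed here.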

Additional observations from a re-analysis of the deposited data

How the results depend on the processing

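Slco4a1 chose the family in this comparison, so its values over refits of the same libraries support nothing. Its log2 fold change was 0.51 on the rlog scale and 1.05 to 1.25 in the other fits, and its call ended without I-PpoI replicate 1 or 2 or any wild type replicate and held without I-PpoI replicate 3. Leaving out 1 library gave 0 to 1 of the 8 genes higher and 0 to 3 lower, the 3 without I-PpoI replicate 3. Over all genes it gave 0 to 261 higher and 0 to 364 lower. Without I-PpoI replicate 3 all I-PpoI libraries lack the hyphen, so that fit partly mixes group with name form. No gene was called without I-PpoI replicate 1, I-PpoI replicate 2 or wild type replicate 3, 2 were without wild type replicate 1 and 9 without wild type replicate 2.

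Genes called higher and lower over the whole table numbered 31 and 0 with library totals only, 44 and 3 with no filter, 126 and 61 by DESeq2, 49 and 15 when the name form entered the model, and 33 and 7 with the replicate number as a block. The block changed no call among the 8 genes. Deviations of same-numbered libraries correlated at 0.22, -0.13 and 0.16, so the numbers were not taken as pairs. Slco2a1 changed sign with upper-quartile factors (0.0016), with library totals only (0.044) and without I-PpoI replicate 2 or wild type replicate 1 (0.033 and 0.0059), in a leave-one-out range of -0.073 to 0.033. Slco4c1 did so when the name form entered the model (-0.10) and without I-PpoI replicate 1 or wild type replicate 3 (-0.098 and -0.12), in a leave-one-out range of -0.12 to 0.94. The cause was not tested. On the rlog scale values were smaller by over 1.5 times for Slco1a4 (-0.14), Slco1a6 (-0.34) and Slco2a1 (-0.012). The same held for Slco2b1 (0.12), Slco3a1 (-0.23), Slco4a1 (0.51) and Slco4c1 (0.053). With the name form in the edgeR model, the efflux list had a median of -0.042 and the hepatocyte list one of -0.40 (-0.62 without that term). A level per coding length was not run. Depth limits Slco1a4 and Slco4c1 most, with 26 to 100 counts per library.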

Other observations

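The remaining cell type lists give the setting of the Slco values. For distal convoluted tubule markers the median log2 fold change was -0.18, 6 of 7 lay below 0, and Pvalb, Sgms2 and Calb1 had the smallest p. Intercalated cell markers had a median of 0.18 with 8 of 8 above 0, led by Aqp6, Slc4a1 and Atp6v1g3. Podocyte markers had a median of 0.22 with 8 of 8 above 0 (Cdkn1c and Nphs1 among the smallest p), and vein and lymphatic markers 0.18 with 4 of 5 above 0 (Vwf, Pdpn and Nr2f2). Macrophage markers had a median of 0.06 (Csf1r, Cd14 and Mrc1), fibroblast and mural markers 0.13 (Acta2, Pdgfrb and Tagln, with Ren1 at 0 in every library), and lymphocyte markers -0.41 at 9.05 CPM or less in sum (Cd3e and Cd79a among the smallest p). Whether reads of Ren1 were lost in counting was not checked, so its value does not show that the gene was silent. Hepatocyte markers had a median of -0.62 (Cyp2e1, Alb and Ttr), and Cyp2e1, which kidney also expresses, made up most of their sum. By edgeR 0 genes of these lists passed. At unadjusted p below 0.05 the higher genes were 2 intercalated, 2 vein and lymphatic, 1 macrophage and 1 fibroblast or mural marker, and the lower ones 2 distal convoluted and 2 hepatocyte markers. The Y-linked genes Uty, Ddx3y and Kdm5d had log2 fold changes of -0.31, -0.23 and -0.13, and none passed.

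In the lists described with the Slco genes, the thick ascending limb list was led by Ptger3, Tmem207 and Slc12a1 (median 0.44), the principal cell list by Avpr2, Fxyd4 and Aqp2 (0.36), the endothelial list by Esam, Plvap and Emcn (0.22), and in the thin limb and deep medulla list (0.69) Slc14a2 and Slc6a12 were among the 3 smallest p. The convoluted segment list was led by Slc13a1, Slc27a2 and Slc22a6 (-0.21) and the straight segment list by Slc22a30, Slc5a8 and Slc7a13 (-0.36).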
